A study of Rattus norvegicus with 6 samples.

Results

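Galectins are small lectins that bind beta-galactoside sugars on glycoproteins and glycolipids. The galectin genes described here were the 5 rows of the gene tables with the symbols Lgals1, Lgals3, Lgals3bp, Lgals8 and Lgals9, taken by symbol out of 25399 listed genes. All 5 had UMIs (unique molecular identifiers, 1 per captured transcript) in every library. The study profiled single brain cells from the pons of Sprague Dawley rats whose labels give the age of postnatal day 21. It set 3 libraries from rats with pontine infarction, a stroke of the brainstem, numbered infarction 1 to 3, against 3 libraries from sham rats, numbered sham 1 to 3. The labels give neither the time after infarction nor how the infarct was made, and they do not say whether each library was 1 animal, so the p-values measure the spread between these libraries only.

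Galectins are made without a signal peptide and reach the cell surface by an unconventional route, where they crosslink glycans and so set how long receptors stay at the membrane. Inside cells, some galectins gather on endosomes and lysosomes whose membrane has broken and whose lumenal sugars have become exposed. In the brain, Lgals3 is best known as a gene of activated microglia and of phagocytes that clear debris, and Lgals1 as a gene of astrocytes, vessels and leukocytes with immune-damping activity. Lgals3bp encodes a secreted glycoprotein that galectins bind. It is not itself a galectin, and it is known as an interferon-inducible gene.

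After filtering, 37853 of 44011 barcodes were kept, in 33 clusters that were named only from marker genes holding no galectin. The libraries held 56416475 to 69924334 UMIs, with medians of 7286.5 to 9562 UMIs per kept cell, and 226 barcodes occurred in more than 1 library. The cell mixture differed widely between the groups. Smooth muscle-like cells numbered 0 in every infarction library and 1948 to 2378 in the sham libraries. Macrophage-like cells numbered 1615, 2011 and 2178 in infarction 1 to 3 and 134, 129 and 115 in sham 1 to 3. The labelled brain tissue held few neuron-like cells, 0 to 2 per infarction library and 26 to 154 per sham library. Levels are therefore given mainly within cell classes, as counts per 1000000 (CPM), the gene's UMIs scaled to that many UMIs of the class in the library.

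The promoters of 3 of the 5 genes (Lgals3bp, Lgals8 and Lgals9) had an entry among the RefSeq windows of the GRCr8 rat assembly, each running from 250 bases before to 50 bases after the annotated start. They are shown because Lgals3bp and Lgals9, described further on, both stood higher in the infarction macrophage-like cluster led by interferon-induced genes than in the other infarction-only macrophage-like clusters. The windows were searched on both strands for the core of the interferon-stimulated response element, GAAA, then any 2 bases, then GAAA on one strand, which reads TTTC, any 2 bases and TTTC on the other. The core is in capitals, and Lgals5, a neighbouring close relative of Lgals9, is added because its window resembles that of Lgals9.
Lgals3bp promoter: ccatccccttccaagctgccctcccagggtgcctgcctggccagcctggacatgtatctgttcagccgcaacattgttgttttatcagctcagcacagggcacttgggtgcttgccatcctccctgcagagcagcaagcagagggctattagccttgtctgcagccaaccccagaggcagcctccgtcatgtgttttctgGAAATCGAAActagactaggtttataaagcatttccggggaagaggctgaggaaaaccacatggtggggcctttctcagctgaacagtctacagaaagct
Lgals9 promoter: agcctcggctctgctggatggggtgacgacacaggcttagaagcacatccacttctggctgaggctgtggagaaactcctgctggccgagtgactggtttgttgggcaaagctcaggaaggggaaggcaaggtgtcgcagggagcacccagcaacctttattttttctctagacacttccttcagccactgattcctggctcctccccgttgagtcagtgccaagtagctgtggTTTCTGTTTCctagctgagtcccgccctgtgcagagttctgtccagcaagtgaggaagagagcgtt
Lgals5 promoter: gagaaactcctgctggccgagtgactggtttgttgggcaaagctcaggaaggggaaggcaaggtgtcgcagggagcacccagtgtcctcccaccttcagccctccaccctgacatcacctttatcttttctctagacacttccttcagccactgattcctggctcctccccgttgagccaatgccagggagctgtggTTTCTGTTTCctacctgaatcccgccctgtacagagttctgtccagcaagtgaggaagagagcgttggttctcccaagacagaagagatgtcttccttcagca
The Lgals3bp window lies at chr10:104127799-104128098 on the minus strand, and its core begins 50 bases before the start. The Lgals9 window lies at chr10:64428021-64428320 on the minus strand, with its core 16 bases before the start, and the Lgals5 window lies at chr10:64355088-64355387 on the minus strand, with its core 53 bases before the start. The Lgals8 window, at chr17:62719603-62719902 on the plus strand, held no such letters. The core was present in 1312 of 33469 windows of this length, 3.92%. The windows of Lgals9 and Lgals5 shared an identical stretch of 82 bases. The likeness of their transcripts was not compared. Reads that match both genes could have been lost or given to either, so Lgals9 values are uncertain to that extent. Lgals5 itself had at most 25 UMIs in any library.

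Lgals3 (ENSRNOG00000010645), a galectin of phagocytes, was higher in the infarction libraries in every cell class that could be tested. In microglia-like cells it stood at 1151, 1022 and 1173 CPM in infarction 1 to 3, against 10.7, 9.69 and 10.4 CPM in sham 1 to 3. These values rest on 16651, 13312 and 11655 UMIs in the infarction libraries and on 23, 59 and 103 UMIs in the sham libraries. The libraries of a group lay close together and the groups did not overlap: the mean was 1115 ± 81.7 CPM in infarction and 10.3 ± 0.51 CPM in sham (SD, n = 3 each). The log2 fold change was 6.76 ± 0.10 (SE), with an adjusted p of 3.55e-10 by edgeR's quasi-likelihood test on UMIs summed per library, Benjamini-Hochberg adjusted over 10492 genes. Among those genes, 32.4% were called higher and 31.9% lower in infarction at an adjusted p under 0.05. Of the 5 galectin genes, 2 were called higher and 1 lower in microglia-like cells.

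**Figure D1:**
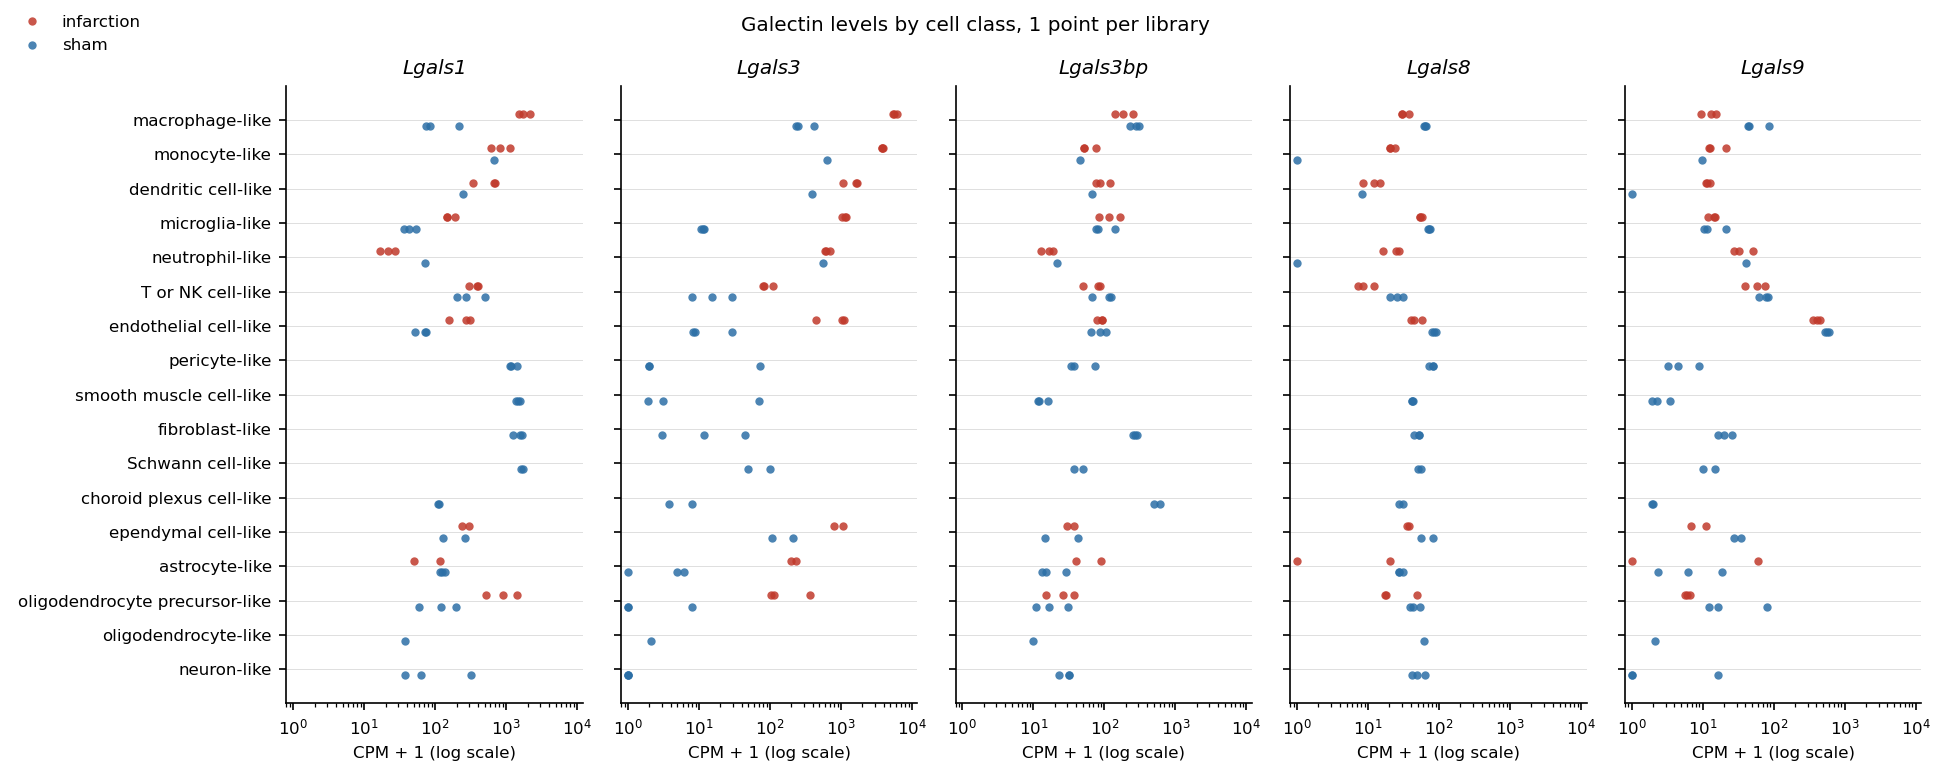
Level of each galectin gene (x axis, CPM + 1, log scale) by cell class (y axis), with 1 point per library for sums of at least 20 cells, red for infarction and blue for sham. Lgals3 in microglia-like cells lies at 1022 to 1173 CPM in the infarction libraries and at 9.69 to 10.7 CPM in the sham libraries.

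Macrophage-like cells had the highest mean Lgals3 in both groups, among classes with at least 20 cells in at least 2 libraries. They held 5425, 5616 and 6098 CPM in infarction 1 to 3 and 251, 231 and 413 CPM in sham 1 to 3, a log2 fold change of 4.73 ± 0.21 (SE; edgeR adjusted p = 1.02e-06). In this class 28.2% of 10375 tested genes were called higher and 26.3% lower, and 2 of the 5 galectin genes were called in each direction. In infarction the next classes in order were monocyte-like cells at 3817, 3870 and 3861 CPM and dendritic cell-like cells at 1661, 1678 and 1084 CPM, and neither overlapped the class above it. Below them, the libraries of dendritic cell-like, microglia-like, ependymal cell-like, endothelial cell-like and neutrophil-like cells overlapped between neighbours in that order. Neutrophil-like cells held 607, 624 and 710 CPM in infarction. Monocyte-like, dendritic cell-like and neutrophil-like cells reached 20 cells in only 1 sham library, sham 2, where they held 642, 396 and 555 CPM, so no test was made.

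The groups drew their macrophage-like and microglia-like cells from different clusters, and this bears on the size of the Lgals3 difference. Among infarction macrophage-like cells, 47.6% lay in a cluster led by Apoc1 and Fabp4 and 44.3% in a cluster led by Arg1 and F13a1. All sham macrophage-like cells lay in a cluster led by Cxcl13, Fcmr and Lyve1, genes of resident macrophages at brain borders, which held 2.86% of the infarction ones. Within that shared cluster Lgals3 stood at 1655, 782 and 662 CPM in infarction 1 to 3 and at 251, 231 and 413 CPM in sham 1 to 3. The groups still did not overlap, and the log2 fold change was 1.83 ± 0.44 (SE; edgeR adjusted p = 0.0407). Lgals3 in the infarction-only clusters was higher, at 6670, 6291 and 6776 CPM in the Apoc1 cluster and 4748, 4820 and 4813 CPM in the Arg1 cluster of infarction 1 to 3.

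In microglia-like cells the cluster led by Tmem119 and P2ry12, markers of resting microglia, held 7.39% of the infarction cells and 71.4% of the sham cells. There Lgals3 was 153, 123 and 139 CPM in infarction 1 to 3, against 6.42, 4.42 and 4.54 CPM in sham 1 to 3 (log2 fold change 4.68 ± 0.19 SE; edgeR adjusted p = 2.1e-11). Its infarction level was far below that of the other microglia-like clusters in the same libraries. The cluster led by Ccl4 and Tnfsf9 stood at 1235, 1235 and 1103 CPM, the cycling cluster led by Top2a and Ube2c at 1019, 892 and 1481 CPM, and a shallow cluster led by Anxa3 and Grxcr1, with a median of 1310 UMIs per cell, at 1577, 1201 and 965 CPM in infarction 1 to 3. The shallow cluster was also the 1 of these 3 with at least 20 cells in every sham library, at 25.1, 75.8 and 17.7 CPM. Leaving out every microglia-like cell with a UMI of Mrc1, Cd163, Pf4, F13a1, Arg1 or Fabp4 gave a log2 fold change of 6.59 (edgeR adjusted p = 1.1e-09).

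**Figure D2:**
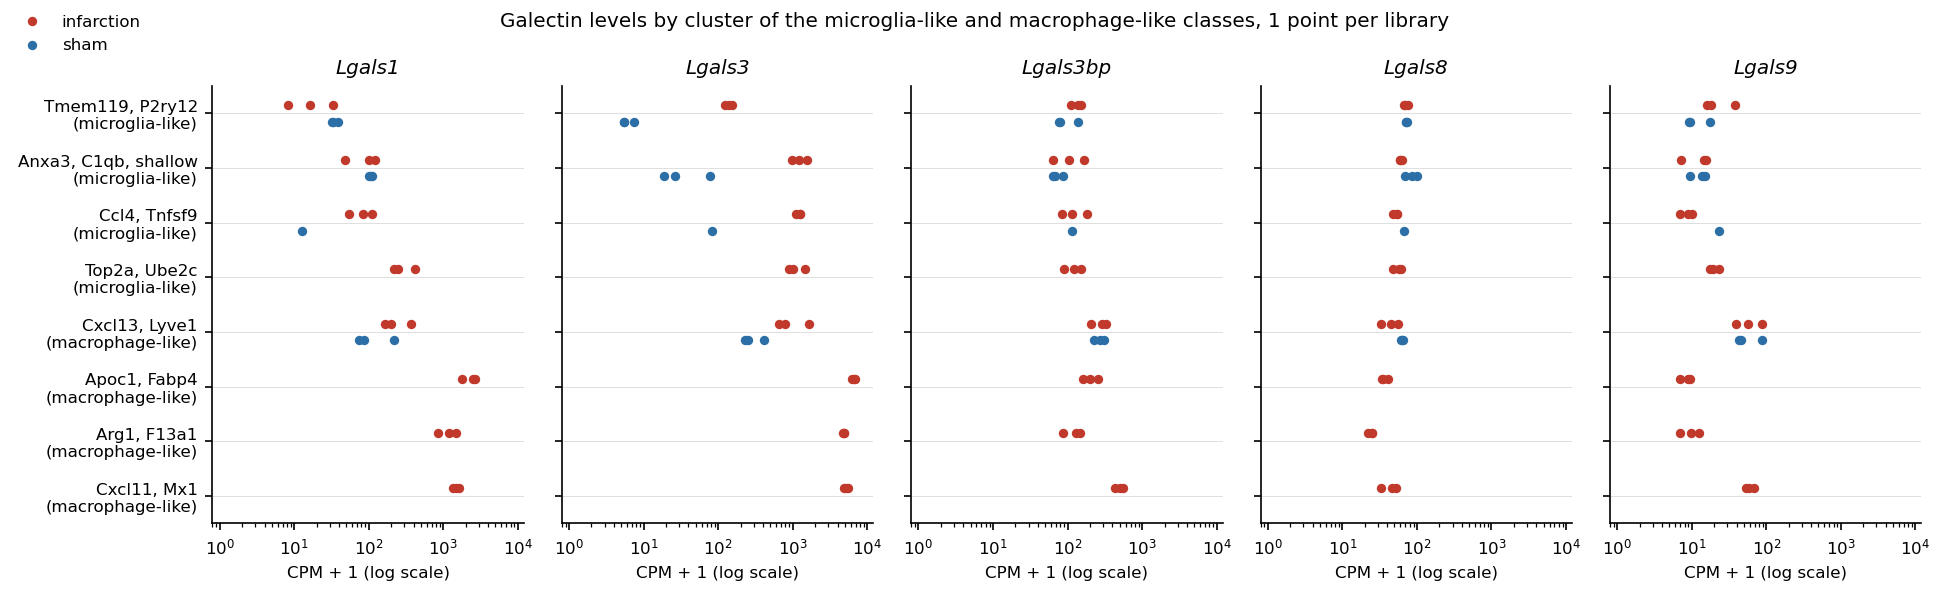
Level of each galectin gene (x axis, CPM + 1, log scale) in the clusters of the microglia-like and macrophage-like classes (y axis, named by leading genes), with 1 point per library with at least 20 cells, red for infarction and blue for sham. In the Tmem119 cluster Lgals3 lies at 123 to 153 CPM in infarction and at 4.42 to 6.42 CPM in sham, while Lgals8 overlaps between the groups.

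Endothelial cell-like cells held 442, 1108 and 1041 CPM of Lgals3 in infarction 1 to 3 and 28.1, 7.93 and 7.31 CPM in sham 1 to 3. This was a log2 fold change of 6.13 ± 0.72 (SE; edgeR adjusted p = 0.00687), which became 6.92 without sham 1 and 4.97 at a clustering resolution of 0.5. In this class 7.65% of 6157 genes were called higher and 7.36% lower, and 2 galectin genes were called higher and 1 lower. In oligodendrocyte precursor-like cells Lgals3 was 364, 102 and 112 CPM in infarction 1 to 3, against 7.03 CPM in sham 1, from 4 UMIs, and 0 in sham 2 and 3. The log2 fold change of 6.45 ± 1.05 (SE; edgeR adjusted p = 0.00636) moved with single libraries, to 9.97 without sham 1, 5.86 without sham 3 and 5.62 without infarction 1, and to 5.64 with at most 10% mitochondrial UMIs per cell. There 14.1% of 6812 genes were called higher and 13.5% lower, and of the 4 galectin genes tested 2 were called higher and 0 lower, with Lgals9 too low to test. T or NK cell-like cells had the lowest mean Lgals3 of the infarction classes, with 82.3, 80.0 and 111 CPM, against 14.5, 28.2 and 7.03 CPM in sham 1 to 3. It was called higher, with a log2 fold change of 2.296 ± 0.34 (SE; edgeR adjusted p = 0.000499), which was 3.13 without sham 2 and 3.96 with no doublets removed. In this class 4.86% of 4692 genes were called higher and 2.71% lower, and 1 galectin gene was called in each direction.

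Levels of Lgals3 in the other classes were set beside those of macrophage markers, as percentages of the macrophage-like level in the same library. In infarction, microglia-like cells held 19.5% of the macrophage-like Lgals3 level, against a marker median of 16.3%. Of the 13 macrophage markers 8 stood at a lower percentage, from Arg1 at 2.82% to Mrc1 at 16.5%, and 5 at a higher one: Ms4a7 at 44.8%, Msr1 at 56.9%, Stab1 at 65.1%, Maf at 148% and Lyve1 at 258%. Lgals3 in endothelial cell-like cells was at 14.99% of the macrophage-like level, against a median of 9.77% for the markers. Above it stood Cd68 at 16.2%, Gpnmb at 17.9%, Msr1 at 24.5%, Maf at 41.4% and Apoe at 48.3%, while Cd163, Lyve1 and Stab1 were at 0 in every infarction library. Lyve1 and Stab1 are weak yardsticks here. Lyve1 led the cluster that held 2.86% of infarction macrophage-like cells, and it stood at 573% of their level in dendritic cell-like cells. Stab1 was at 178% ± 308 in neutrophil-like and 65.1% ± 45.2 in microglia-like cells (SD, n = 3 each). In T or NK cell-like cells Lgals3 was at 1.59%, against a marker median of 2.22%, and in oligodendrocyte precursor-like cells at 3.46%, against a marker median of 6.28%. Both of these lay below the marker median. The summed level of the 13 markers without Apoe was 978 to 1192 CPM in infarction and 259 to 295 CPM in sham microglia-like cells, and 773 to 1283 CPM in infarction and 10.2 to 233 CPM in sham endothelial cell-like cells. It was 97.8 to 351 CPM in infarction and 37.3 to 89.2 CPM in sham T or NK cell-like cells, and 178 to 956 CPM in infarction and 70.4 to 102 CPM in sham oligodendrocyte precursor-like cells. Median mitochondrial shares per cell also differed, at 7.07% to 7.67% in infarction and 4.77% to 5.11% in sham microglia-like cells and at 11.8% to 14.1% in infarction and 6.75% to 8.37% in sham endothelial cell-like cells. They were 6.90% to 9.28% in infarction and 4.75% to 5.76% in sham T or NK cell-like cells. Median depth was 3802 to 4078.5 UMIs per cell in infarction and 6579 to 7140 UMIs in sham endothelial cell-like cells. The pan-leukocyte gene Ptprc was 63.6 ± 27.8 CPM in infarction and 4.55 ± 5.55 CPM in sham endothelial cell-like cells (SD, n = 3 each; log2 fold change 3.40, edgeR adjusted p = 0.0205). The part of RNA of other leukocytes and of cell quality in the Lgals3 and Lgals1 differences was not tested.

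**Figure D3:**
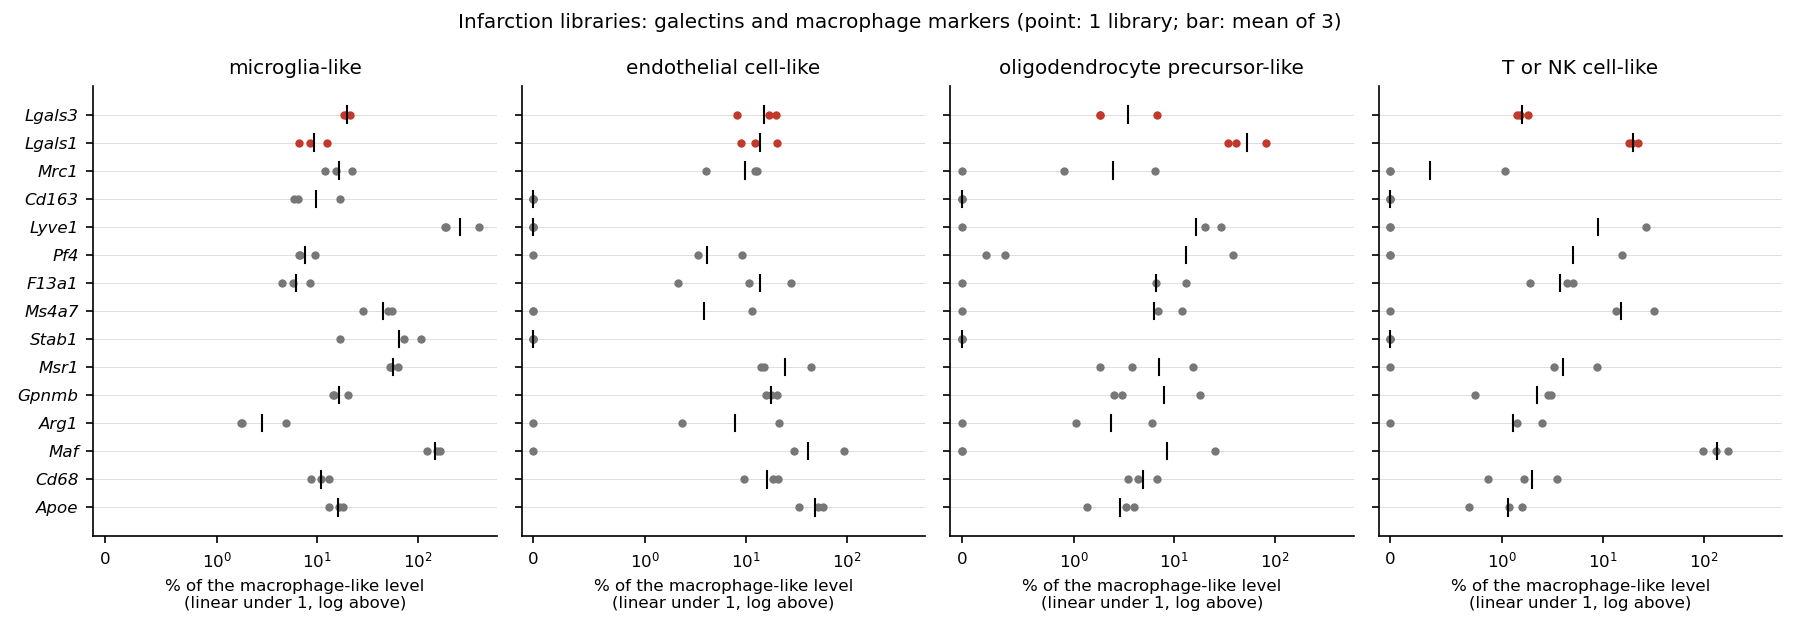
Level of Lgals3 and Lgals1 (red) and of 13 macrophage markers (grey) in 4 cell classes of the infarction libraries, as a percentage of the macrophage-like level in the same library (x axis, linear under 1 and logarithmic above). Points are libraries and black bars are means of 3 libraries; Lgals1 in oligodendrocyte precursor-like cells, at a mean of 52.1%, lies above all 13 markers.

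Shares of cells with a UMI were compared after thinning every cell to 2000 UMIs. Lgals3 was detected in 53.8% ± 6.88 of infarction and 1.02% ± 0.39 of sham microglia-like cells, and in 98.5% ± 0.15 of infarction and 28.6% ± 4.89 of sham macrophage-like cells (SD, n = 3 libraries each). In T or NK cell-like cells, taken as a class with little expected Lgals3, the shares were 10.7% ± 1.22 in infarction and 2.88% ± 0.15 in sham, so the microglia-like share lay above this level in infarction and below it in sham. The shares of the groups did not overlap in any of these classes, which with 3 libraries against 3 gives an exact two-sided permutation p of 0.1, the smallest this design allows. Thinning left out 80 to 507 infarction and 91 to 419 sham microglia-like cells per library, 16 to 58 infarction and 7 to 8 sham macrophage-like cells, and 6 to 8 infarction and 5 to 18 sham T or NK cell-like cells. Before thinning, the microglia-like shares were 69.8% in infarction and 2.60% in sham. Median depths before thinning of the cells used were 7918 to 16682 UMIs in infarction and 6041 to 6536.5 UMIs in sham microglia-like cells, and 5173 to 5839 UMIs in infarction and 4488 to 6006 UMIs in sham T or NK cell-like cells. At this thinned depth, 81.9%, 88.6% and 82.1% of macrophage-like cells of infarction 1 to 3 held UMIs of both Lgals3 and Lgals1, against 6.35%, 4.10% and 5.56% in sham 1 to 3. In microglia-like cells this share was 10.6%, 8.90% and 6.91% in infarction and 0.32%, 0.12% and 0.07% in sham.

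Over all cells of a library together, Lgals3 was 3245, 3441 and 4071 CPM in infarction 1 to 3 and 59.2, 11.6 and 15.1 CPM in sham 1 to 3, a log2 fold change of 7.42 ± 0.83 (SE; edgeR adjusted p = 0.000414). Sham 1 stood apart, and without it the value was 8.58. Among 14613 genes tested over all cells, 33.2% were called higher and 38.1% lower, and of the galectin genes 2 were called higher and 0 lower. In such sums fewer cells of a type and less RNA per cell cannot be told apart. The sham 1 excess lay in mural and connective tissue cells: smooth muscle-like cells held 69.2 CPM in sham 1 and 2.15 and 0.913 CPM in sham 2 and 3, and pericyte-like cells 72.6 CPM in sham 1 and 0.991 and 0.971 CPM in sham 2 and 3.

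Lgals1 (ENSRNOG00000009884), which crosslinks glycans on T cells, vessels and matrix, overlapped between the groups in its level over all cells and lay mostly in different cell classes of each. Over all cells it was 1004, 1321 and 1020 CPM in infarction 1 to 3 and 1172, 813 and 950 CPM in sham 1 to 3. The log2 fold change of 0.65 ± 0.18 (SE; edgeR adjusted p = 0.0180) depended on scaling: the trimmed-mean (TMM) factors shifted it by 0.47, and with library totals it was 0.19 (adjusted p = 0.36). It was 0.55 without sham 2 (adjusted p = 0.0502), 0.53 without infarction 2 (adjusted p = 0.0545) and 1.45 with at most 10% mitochondrial UMIs per cell. Macrophage-like cells, 30.6% of infarction cells, held 71.7% ± 5.53 of the Lgals1 UMIs there, while smooth muscle-like cells, 34.1% of sham cells, held 63.0% ± 6.02 of them in sham (SD, n = 3 each). In sham the order was Schwann cell-like (1746 and 1634 CPM in sham 1 and 2), fibroblast-like (1672, 1548 and 1227 CPM), smooth muscle-like (1540, 1373 and 1471 CPM) and pericyte-like cells (1416, 1162 and 1136 CPM). These 4 overlapped between neighbours and stood clear of all other sham classes.

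**Figure D4:**
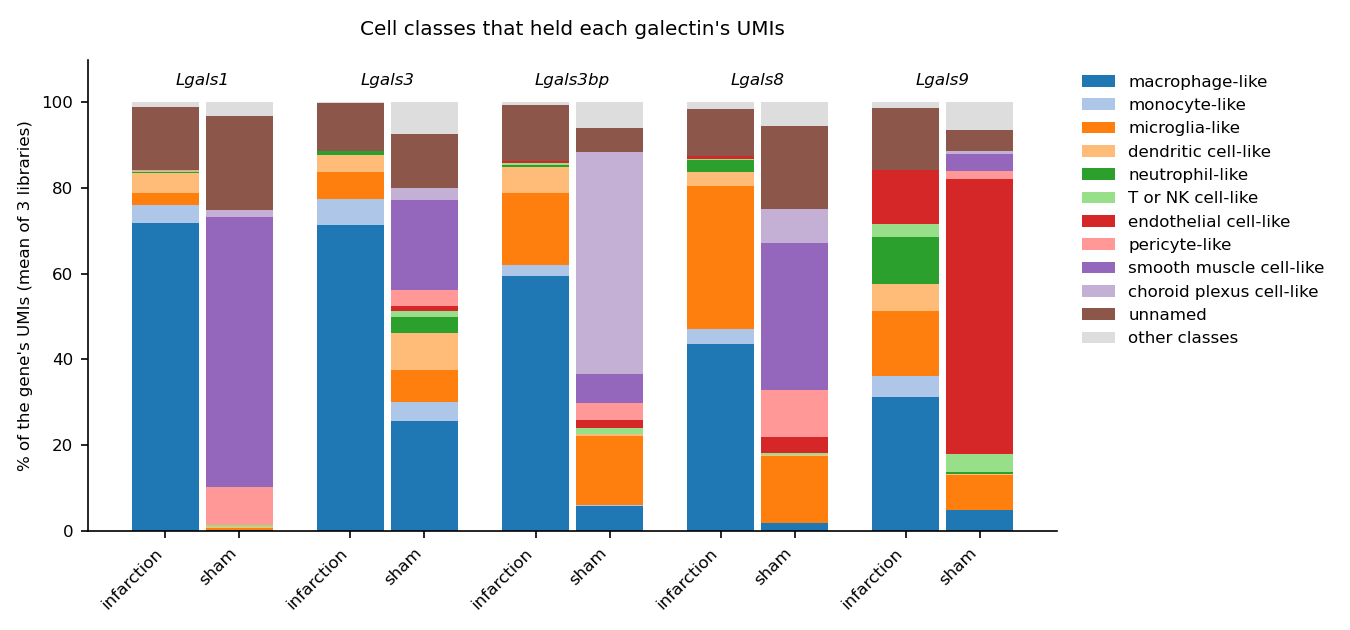
Share of each galectin gene's UMIs by the cell class that held them (y axis, percent, mean of 3 libraries), with the infarction bar left of the sham bar for each gene. Lgals1 UMIs lie mostly in macrophage-like cells in infarction (71.7%) and in smooth muscle-like cells in sham (63.0%), and Lgals9 UMIs in sham mostly in endothelial cell-like cells (64.2%).

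Macrophage-like cells held 1718, 2183 and 1504 CPM of Lgals1 in infarction 1 to 3, against 214, 72.3 and 84.7 CPM in sham 1 to 3. This was a log2 fold change of 4.34 ± 0.49 (SE; edgeR adjusted p = 0.00126), and of 5.04 without sham 1. Within the shared Lyve1 cluster Lgals1 stood at 373, 200 and 164 CPM in infarction and at 214, 72.3 and 84.7 CPM in sham, where the groups overlapped and the test was not passed (log2 fold change 1.05 ± 0.58 SE; edgeR adjusted p = 0.28). The high values were those of the infarction-only clusters, 2542, 2699 and 1778 CPM in the Apoc1 cluster and 1197, 1469 and 860 CPM in the Arg1 cluster. Thinned to 2000 UMIs, 84.9% ± 4.24 of infarction and 14.3% ± 6.33 of sham macrophage-like cells held a Lgals1 UMI (exact permutation p = 0.1).

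In microglia-like cells Lgals1 was 146, 144 and 189 CPM in infarction 1 to 3 and 41.8, 51.9 and 35.4 CPM in sham 1 to 3, a log2 fold change of 1.87 ± 0.16 (SE; edgeR adjusted p = 3e-05). This call did not hold under 4 other choices of cells. The log2 fold change was -0.02 (adjusted p = 0.96) when no doublets were removed, 0.79 (adjusted p = 0.081) without cells holding a UMI of Mki67 or Top2a, 0.31 (adjusted p = 0.32) without cells holding a macrophage gene, and -0.62 (adjusted p = 0.11) in the Tmem119 cluster. Among microglia-like clusters Lgals1 was highest in the cycling one, at 244, 220 and 411 CPM in infarction. Its level in microglia-like cells was 9.21% of the macrophage-like level, and 3 of the 13 macrophage markers stood lower.

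Endothelial cell-like cells held 153, 270 and 306 CPM of Lgals1 in infarction 1 to 3, against 70.3, 72.3 and 51.1 CPM in sham 1 to 3 (log2 fold change 2.06 ± 0.25 SE; edgeR adjusted p = 8.01e-05). This was 13.9% of the macrophage-like level, with 8 of 13 macrophage markers lower, and the log2 fold change was 1.16 at a clustering resolution of 0.5. Oligodendrocyte precursor-like cells held 1398, 890 and 514 CPM in infarction, against 119, 197 and 59.0 CPM in sham (log2 fold change 3.18 ± 0.54 SE; edgeR adjusted p = 0.00417). They reached 52.1% of the macrophage-like level, above all 13 macrophage markers, of which the highest was at 16.3%. Without cells holding Mki67 or Top2a the value was 2.42 and the call was lost (adjusted p = 0.20). T or NK cell-like cells held 387, 394 and 295 CPM in infarction and 270, 495 and 204 CPM in sham, which overlapped (log2 fold change 0.15 ± 0.42 SE; edgeR adjusted p = 0.892; 0.69 and 0.048 without sham 2).

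Lgals9 (ENSRNOG00000012681), a galectin with a pair of sugar-binding domains that is known as a ligand of Tim-3 (Havcr2) on T cells and myeloid cells, had its highest level in endothelial cell-like cells in both groups. It stood at 449, 356 and 401 CPM there in infarction 1 to 3 and at 563, 598 and 532 CPM in sham 1 to 3, clear of every other class. The groups did not overlap, but the log2 fold change of -0.33 ± 0.16 (SE) missed the threshold (edgeR adjusted p = 0.169), and with library totals it was -0.49 (adjusted p = 0.0376). Sham endothelial cell-like cells held 64.2% ± 15.5 of all Lgals9 UMIs in 1.88% of the cells, and infarction ones 12.7% ± 1.82 of them in 0.93% of the cells (SD, n = 3 each), where macrophage-like cells held 31.2%.

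In macrophage-like cells Lgals9 was 12.2, 8.49 and 14.6 CPM in infarction 1 to 3 and 85.1, 44.3 and 42.3 CPM in sham 1 to 3, a log2 fold change of -1.80 ± 0.31 (SE; edgeR adjusted p = 0.00129). In the shared Lyve1 cluster it was 85.2, 55.1 and 38.7 CPM in infarction and 85.1, 44.3 and 42.3 CPM in sham, which overlapped, and the test was not passed (log2 fold change 0.16 ± 0.31 SE; edgeR adjusted p = 0.74). Among the infarction-only macrophage-like clusters the one led by Cxcl11 and Mx1, interferon-induced genes, held 52.5, 57.2 and 67.1 CPM of Lgals9, while the Apoc1 cluster held 8.01, 5.95 and 8.58 CPM and the Arg1 cluster 8.90, 6.05 and 11.6 CPM. Microglia-like cells held 14.03, 10.7 and 13.4 CPM in infarction and 19.99, 9.36 and 10.6 CPM in sham, which overlapped (log2 fold change 0.06 ± 0.25 SE; edgeR adjusted p = 0.845).

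Lgals3bp (ENSRNOG00000003217), the galectin-binding glycoprotein, was called in no class by edgeR or by DESeq2 with all 6 libraries, and none of those unadjusted p-values for infarction against sham within a class was under 0.05. In macrophage-like cells it was 184, 142 and 251 CPM in infarction 1 to 3 and 275, 228 and 309 CPM in sham 1 to 3, and the groups overlapped (log2 fold change -0.02 ± 0.20 SE; edgeR adjusted p = 0.943; -0.41 and 0.0367 without infarction 3). In microglia-like cells it was 117, 84.1 and 166 CPM in infarction and 139, 75.6 and 79.8 CPM in sham, again overlapping (log2 fold change 0.33 ± 0.35 SE; edgeR adjusted p = 0.449). The interferon-gene cluster stood highest of the macrophage-like clusters, at 509, 427 and 560 CPM in infarction 1 to 3, against 198, 160 and 254 CPM in the Apoc1 cluster and 148, 84.9 and 130 CPM in the Arg1 cluster of the same libraries. Outside the leukocytes, choroid plexus-like cells held 600 and 495 CPM in sham 1 and 2, the highest level of any class. The all-cell level of 132, 107 and 196 CPM in infarction and 126, 149 and 39.5 CPM in sham overlapped between the groups (log2 fold change 0.92 ± 0.50 SE; edgeR adjusted p = 0.143). Choroid plexus-like cells numbered 0, 2 and 2 in infarction 1 to 3 and 185, 384 and 17 in sham 1 to 3, and held 0.02% of the Lgals3bp UMIs in infarction and 51.8% ± 39.1 in sham (SD, n = 3 each).

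Lgals8 (ENSRNOG00000018046), a sensor of broken lysosomes with a pair of sugar-binding domains, stood at class means of 24.8 to 84.0 CPM across the 13 sham classes with sums from at least 2 libraries, and was called lower in infarction in 4 of the 5 tested classes. Microglia-like cells held 52.7, 53.2 and 55.98 CPM in infarction 1 to 3, against 71.1, 68.7 and 73.3 CPM in sham 1 to 3. The groups did not overlap, and the log2 fold change was -0.42 ± 0.07 (SE; edgeR adjusted p = 0.000866). Within the Tmem119 cluster the values were 65.8, 74.6 and 68.5 CPM in infarction and 70.1, 69.6 and 73.2 CPM in sham, a log2 fold change of -0.11 ± 0.14 (SE; edgeR adjusted p = 0.63). Macrophage-like cells held 29.5, 29.4 and 36.5 CPM in infarction and 62.5, 64.2 and 59.8 CPM in sham (log2 fold change -0.50 ± 0.15 SE; edgeR adjusted p = 0.0133). That call was lost without sham 1 (-0.45, adjusted p = 0.0547), without sham 2 (-0.39, adjusted p = 0.0855), with no filter on low counts (-0.32, adjusted p = 0.126) and in the Lyve1 cluster (-0.43, adjusted p = 0.185).

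Endothelial cell-like cells held 55.7, 39.6 and 43.8 CPM of Lgals8 in infarction and 89.8, 78.9 and 83.3 CPM in sham, at the edge of the threshold (log2 fold change -0.70 ± 0.23 SE; edgeR adjusted p = 0.0499). Leaving out any 1 of the 6 libraries ended this call, with adjusted p of 0.0568 to 0.18. T or NK cell-like cells held only 4, 5 and 4 UMIs in infarction and 12, 17 and 13 UMIs in sham (log2 fold change -1.55 ± 0.44 SE; edgeR adjusted p = 0.0366), and 5 of the 6 fits that left out a library ended the call, all but the one without infarction 1. Over all cells Lgals8 was 31.4, 31.7 and 35.2 CPM in infarction and 48.9, 46.6 and 53.6 CPM in sham, with a log2 fold change of -0.13 ± 0.08 (SE; edgeR adjusted p = 0.179) that became -0.60 with library totals (adjusted p = 0.00133).

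**Figure D5:**
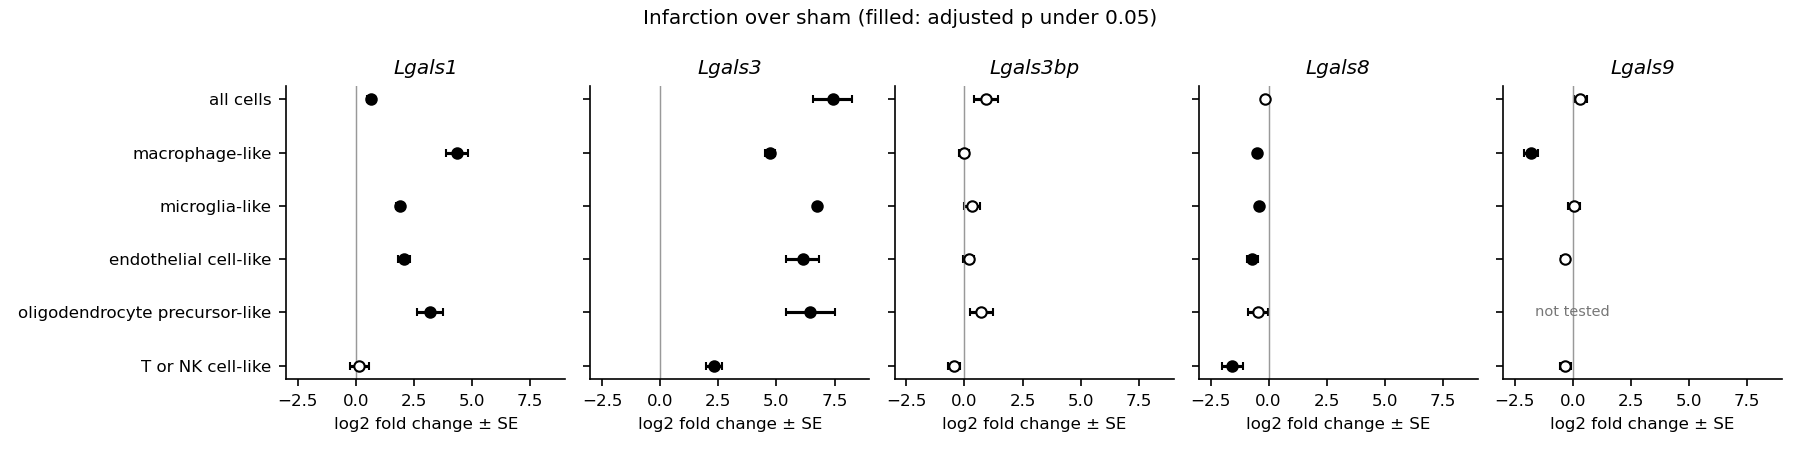
Log2 fold change of each galectin gene, infarction over sham (x axis), in all cells and in 5 cell classes (y axis). Points are edgeR estimates from 3 infarction and 3 sham libraries, bars are standard errors, and filled points have an adjusted p under 0.05; Lgals3 is filled and above 0 in all 6 rows.

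The change between infarction and sham differed between classes for some of the 5 genes. Set against microglia-like cells, the Lgals3 change was smaller in macrophage-like cells, by -1.98 ± 0.15 on the log2 scale (SE; edgeR interaction test, adjusted p = 3.84e-07), and smaller in T or NK cell-like cells, by -4.34 ± 0.42 (adjusted p = 5.97e-06). The Lgals1 change was larger in macrophage-like than in microglia-like cells by 2.68 ± 0.54 (adjusted p = 0.0235), a call that 4 of the 6 fits that left out a library ended (without sham 2, sham 3, infarction 1 or infarction 2, adjusted p of 0.0602 to 0.0901), and smaller in T or NK cell-like cells by -1.56 ± 0.29 (adjusted p = 0.00416). Both Lgals1 differences are set against a microglia-like change that did not hold under some other choices of cells, as given above. The interaction was fitted on the main choice of cells only. The Lgals9 change was lower in macrophage-like than in microglia-like cells by -1.67 ± 0.22 (adjusted p = 1.08e-05). Differences of Lgals3bp and Lgals8 did not pass the test in either pair, nor did that of Lgals9 between T or NK cell-like and microglia-like cells. That of Lgals3bp turned on single libraries. Between macrophage-like and microglia-like cells it was -0.30 (edgeR adjusted p = 0.245), -0.53 without sham 1 (adjusted p = 0.00477) and -0.05 without sham 3 (adjusted p = 0.887). Between T or NK cell-like and microglia-like cells it was -0.70 (edgeR adjusted p = 0.0584), -0.83 without sham 1 (adjusted p = 0.0226), -0.84 without infarction 1 (adjusted p = 0.0448) and -0.46 without sham 3 (adjusted p = 0.289). In the test of macrophage-like against microglia-like cells 33.6% of 11387 genes passed, and in that of T or NK cell-like against microglia-like cells 17.6% of 8518 genes passed.

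Genes on which galectins act were taken from lists of known counter-receptors, glycan enzymes and lysosome-damage genes. Their differences in macrophage-like and microglia-like cells compare groups drawn from different clusters, as described above. No gene of these lists was compared within a single cluster, so the part of cluster mixture in these differences was not tested. Of 26 counter-receptors and binding partners, 24 were in the files. In microglia-like cells 8 of the 23 tested were called higher and 11 lower, with a median log2 fold change of -0.04 against -0.02 for all genes tested. Of all genes tested there, 32.4% were called higher and 31.9% lower. Cd44, the hyaluronan receptor, rose to 103 ± 13.9 CPM in infarction, against 2.81 ± 0.788 CPM in sham (log2 fold change 5.30; edgeR adjusted p = 5.41e-08). Lamp1 and Lamp2, heavily glycosylated lysosome membrane proteins that carry galectin ligands, fell: Lamp2 was 482 ± 35.2 CPM in infarction and 1471 ± 19.0 CPM in sham (-1.63; adjusted p = 1.26e-07), and Lamp1 477 ± 42.2 CPM in infarction and 1012 ± 74.5 CPM in sham (-1.10; adjusted p = 2.58e-06). Trem2, a microglial lipid receptor that Lgals3 binds, also fell, to 333 ± 48.9 CPM in infarction against 1075 ± 41.1 CPM in sham (-1.71; adjusted p = 6.26e-07). Trem2 also served as a microglia marker when clusters were named.

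In macrophage-like cells 7 of 22 tested counter-receptors were called higher and 6 lower, and 6 higher and 13 lower with library totals, since TMM moved the median of all genes there by 0.47. Over all genes 28.2% were called higher and 26.3% lower. With library totals 1740 of 10375 genes were higher and 4276 lower. Cd44 was 490 ± 84.8 CPM in infarction and 59.0 ± 15.9 CPM in sham (log2 fold change 3.53; edgeR adjusted p = 4.55e-07). P4hb, a disulfide isomerase that Lgals9 binds on T cells, was 683 ± 16.6 CPM in infarction and 307 ± 29.3 CPM in sham (1.63; adjusted p = 2.54e-07). Tlr4, the endotoxin receptor, fell to 7.70 ± 1.26 CPM in infarction, against 56.5 ± 4.47 CPM in sham (-2.40; adjusted p = 1.58e-06). Of 14 tested in T or NK cell-like cells, 2 were called higher and 0 lower, and of 14 in endothelial cell-like cells 3 were higher and 0 lower. Over all genes, 4.86% were higher and 2.71% lower in T or NK cell-like cells, and 7.65% and 7.36% in endothelial cell-like cells. The 3 in endothelial cell-like cells were P4hb, Cd44, at 100 ± 23.4 CPM in infarction and 0.361 ± 0.625 CPM in sham, and the pan-leukocyte gene Ptprc described above. The summed macrophage markers moved with them in this class, and the part of leukocyte RNA was not tested. In T or NK cell-like cells Cd44 was called too, at 281 ± 10.5 CPM in infarction and 171 ± 50.9 CPM in sham T or NK cell-like cells (0.79; adjusted p = 0.00819). Of 13 tested in oligodendrocyte precursor-like cells, 4 were called higher and 2 lower, beside 14.1% higher and 13.5% lower over all genes. Cd44 there was 290 ± 68.8 CPM in infarction and 0 in sham (edgeR adjusted p = 0.000132).

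Branched N-glycans with N-acetyllactosamine are the main galectin ligands, and all 18 listed glycan enzymes and transporters were in the files. The list was not limited to N-glycan branching: Gcnt1 acts on O-glycans and Fut8 adds core fucose. In microglia-like cells 5 of 16 tested were called higher and 6 lower, and in macrophage-like cells 3 of 16 were higher and 6 lower (2 and 10 with library totals). These shares stand beside 32.4% higher and 31.9% lower over all genes in microglia-like cells and 28.2% and 26.3% in macrophage-like cells. With library totals 1740 of 10375 genes were higher and 4276 lower in macrophage-like cells. The median log2 fold change of the list was 0.003 against -0.02 for all genes in microglia-like cells and -0.17 against 0.01 in macrophage-like cells. Gcnt2, which starts branches on polylactosamine, was 35.2 ± 5.51 CPM in infarction and 6.86 ± 1.51 CPM in sham microglia-like cells (log2 fold change 2.42; edgeR adjusted p = 3.37e-06). It was called higher in macrophage-like cells too, at 36.7 ± 9.22 CPM in infarction and 0 in sham (edgeR adjusted p = 0.000145). Slc35a2 was lower in microglia-like cells, at 9.14 ± 1.77 CPM in infarction and 28.9 ± 2.92 CPM in sham (-1.69, edgeR adjusted p = 1.12e-05). Mgat1, which opens the path to complex N-glycans, fell to 33.2 ± 1.48 CPM in infarction macrophage-like cells, against 116 ± 15.3 CPM in sham ones (-1.34; adjusted p = 1.02e-05). In endothelial cell-like cells 0 of 14 were higher and 3 lower, Fut8, Gcnt1 and B3gnt2, beside 7.65% higher and 7.36% lower over all genes. Gcnt1 was 29.8 ± 11.8 CPM in infarction and 93.1 ± 31.1 CPM in sham (-1.51, edgeR adjusted p = 0.00606).

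Sialic acid can cap galactose and block galectin binding, depending on the linkage and the galectin. All 11 listed genes of these caps and their removal were in the files. In microglia-like cells 2 of 9 tested were called higher and 5 lower, and in macrophage-like cells 2 of 8 were higher and 4 lower (0 and 6 with library totals). The median log2 fold change was -0.34 in microglia-like and -0.50 in macrophage-like cells, against -0.02 and 0.01 for all genes. Of all genes, 32.4% and 28.2% were called higher and 31.9% and 26.3% lower in these classes. With library totals 1740 of 10375 genes were higher and 4276 lower in macrophage-like cells. The sialyltransferase St3gal6 was 1.74 ± 0.104 CPM in infarction macrophage-like cells, against 45.9 ± 7.49 CPM in sham ones (log2 fold change -4.25, edgeR adjusted p = 7.27e-08). St6gal1, another sialyltransferase, was 5.10 ± 1.37 CPM in infarction and 27.0 ± 10.4 CPM in sham macrophage-like cells (-1.91, edgeR adjusted p = 0.000314). These cells came mostly from different clusters in the groups. In microglia-like cells St3gal4 rose to 33.3 ± 4.21 CPM in infarction, against 12.3 ± 3.19 CPM in sham (1.49; adjusted p = 4.76e-05), and the sialidase Neu3 fell to 2.72 ± 0.283 CPM in infarction, against 15.4 ± 0.935 CPM in sham (-2.51; adjusted p = 1.42e-06). In endothelial cell-like cells 1 of 8 tested was called higher and 3 lower, beside 7.65% higher and 7.36% lower over all genes.

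Of 18 listed genes of the response to broken lysosomes, 15 were in the files. In macrophage-like cells 10 of 13 tested were called higher and 0 lower, with a median log2 fold change of 0.71 against 0.01 for all genes. Over all genes tested there, 28.2% were called higher and 26.3% lower. With library totals 5 were higher and 1 lower, with a median of 0.24 against -0.46 for all genes. Of the 10375 genes tested, 1740 were then called higher and 4276 lower. Optn, an autophagy receptor, was 31.9 ± 4.32 CPM in infarction and 2.05 ± 0.629 CPM in sham (4.41; edgeR adjusted p = 1.34e-06). Tax1bp1, a second such receptor, was 210 ± 9.78 CPM in infarction and 118 ± 14.6 CPM in sham (1.30; adjusted p = 3.64e-06), and Pdcd6ip, an ESCRT partner in membrane repair, 139 ± 7.58 CPM in infarction and 68.8 ± 10.7 CPM in sham (1.49; adjusted p = 4.7e-06). In microglia-like cells 3 of 13 were higher and 3 lower, beside 32.4% higher and 31.9% lower over all genes.

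Of 9 other listed galectin genes, 7 were in the files. Lgals2, Lgals4, Lgals5, Lgals7 and Lgals12 had at most 25 UMIs in any library. Grifin, a galectin relative of the lens, had 602 UMIs in sham 3 and few elsewhere. Lgalsl, a galectin-like gene, stood at 1.46, 2.33 and 2.72 CPM over all cells of infarction 1 to 3 and 209, 193 and 219 CPM in sham 1 to 3 (log2 fold change -6.12 ± 0.24 SE; edgeR adjusted p = 1.28e-05). Sham smooth muscle-like cells held 265, 304 and 322 CPM of it and sham pericyte-like cells 244, 247 and 227 CPM, classes that were missing or nearly missing from infarction. Lgalsl was also called lower within macrophage-like cells (log2 fold change -2.68, edgeR adjusted p = 0.000223). The same held in microglia-like (-1.60, adjusted p = 0.00321) and oligodendrocyte precursor-like cells (-1.97, adjusted p = 0.0115). Over all genes, 26.3%, 31.9% and 13.5% were called lower in these classes. In endothelial cell-like cells Lgalsl was not called (-0.76).

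Genes whose levels were most like each galectin's were found over 68 sums of 1 class in 1 library, by Pearson's r of log2(CPM + 5) over 8881 genes, as a description, since the sums share libraries and depths. Closest to Lgals1 were Emp3 (r = 0.75) and Vim (r = 0.72), followed by Ahnak, Ybx3 and Arhgap10. Closest to Lgals3 were the scavenger receptor Msr1 (r = 0.86) and Lilrb4 (r = 0.84), followed by Csf2ra, Hk3 and Clec7a. Lgals3bp was closest to Cxcl16 (r = 0.70), Gga2, the interferon-induced Bst2, Glb1 and Dse. Lgals8 was closest to Nuak1 (r = 0.75), Zhx1, Pigc, Ctnnd1 and Tmem101, and Lgals9 to the death ligand Tnfsf10 (r = 0.81), Sigirr, Ushbp1, Adgrl4 and Akr1cl. Between the galectin genes themselves r ran only up to 0.24, for Lgals3bp and Lgals9, and down to -0.36, for Lgals3 and Lgals8.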

How the data were processed

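Single-cell suspensions were captured in Chromium droplets and counted with Cell Ranger 3.1.0, with CASAVA 1.8 and Seurat 2.3.4 also named, per the submitters' processing notes. Genome build and gene annotation: not given in the sources used here. The authors deposited raw UMI counts per gene and barcode, 1 matrix per library; their own cell types were not used here. Barcodes with at least 500 UMIs, 200 genes and at most 20% mitochondrial UMIs were kept, and those with a Scrublet doublet score above 0.25 were removed (1.74% to 2.79% per library), because the caller's automatic threshold marked almost none. Cells were clustered with scanpy 1.11.5 (2000 variable genes, 30 principal components, 15 neighbours, Leiden resolution 1.0), leaving out every gene whose symbol starts with Lgals, and clusters were named from at least 3 listed markers (202 of 217 were in the files) or left unnamed.

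For each class that reached 20 cells in all 6 libraries, UMI counts were summed per library and tested with edgeR 4.0.16 (R 4.3.3; TMM factors, low-count filter, robust quasi-likelihood fit), with Benjamini-Hochberg adjustment over all genes tested. Differences between classes used an interaction term with the library as a block. TMM shifted log2 fold changes against library totals by 0.47 over all cells and in macrophage-like cells, 0.28 in oligodendrocyte precursor-like, 0.16 in endothelial cell-like, 0.04 in T or NK cell-like and -0.02 in microglia-like cells. The edgeR test of infarction against sham was run on simulated counts modelled on microglia-like and T or NK cell-like cells. Clustering, class naming, thinning and the interaction test were not simulated. Depth limits precision: intervals and floors from counts would cover counting error only, and errors given are over libraries. DESeq2 1.42.0 was an alternative; scaling by library totals, the fits on single clusters and the one without the shallow microglia-like cluster were chosen after seeing the data. The 5 genes and all gene lists were chosen with earlier results of these data known. Named genes were the 5 galectin genes, the 5 most similar genes of each, and up to 4 called genes of smallest p per list and class.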

Additional observations from a re-analysis of the deposited data

Results flagged for a closer look

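For 5 results the infarction-over-sham change differed between cell classes by the interaction test. Compared with microglia-like cells, the log2 change of macrophage-like cells differed by 2.68 for Lgals1, by -1.98 for Lgals3 and by -1.67 for Lgals9. Compared with microglia-like cells, that of T or NK cell-like cells differed by -1.56 for Lgals1 and by -4.34 for Lgals3. For Lgals3 all of these classes were higher in infarction, so the difference is one of size. Leaving out each library in turn gave 2.303 to 3.20 for the Lgals1 value in macrophage-like cells, -2.11 to -1.63 for Lgals3 and -1.82 to -1.56 for Lgals9. In T or NK cell-like cells it gave -1.76 to -1.13 for Lgals1 and -4.72 to -3.33 for Lgals3, the smallest sizes of both without sham 2. All these fits used the main choice of cells. Both Lgals1 differences are set against the microglia-like Lgals1 change, whose call was lost under other choices of cells, as given above. That change was -0.62 in the Tmem119 cluster. The interaction was not tested under those choices. The macrophage-like cells of the groups came mostly from different clusters, and the part of this in the 3 macrophage values was not tested by an interaction within 1 cluster.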

How the results depend on the processing

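The Lgals3 rise kept its direction in every alternative that could be run and lost its call in 1, endothelial cell-like cells with replicate number as a block (adjusted p = 0.0957). Endothelial cell-like cells were too few to test at 10% mitochondrial UMIs, and no oligodendrocyte precursor-like class was tested with no doublets removed or at Leiden resolution 0.5. Replicate numbers did not pair the libraries: deviations of same-numbered libraries correlated at -0.02, -0.03 and 0.10 over all cells and at 0.04, 0.15 and -0.03 in microglia-like cells. With the replicate block the galectin genes called lower in T or NK cell-like cells were 0 instead of 1, and in endothelial cell-like cells 1 was higher instead of 2 and 0 lower instead of 1. DESeq2 also gave 0 lower in both of these classes. In T or NK cell-like cells the number lower was 0 with no doublets removed, with at most 10% mitochondrial UMIs, without cycling cells or with at least 2000 UMIs per cell, the last 3 because Lgals8 was then too low to test. In endothelial cell-like cells it was 0 at Leiden resolution 0.5 and without cycling cells, and 2 with library totals. Over all cells, library totals gave 1 higher and 1 lower instead of 2 and 0.

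In macrophage-like cells 1 gene was lower with no count filter, and 1 higher and 0 lower in the Lyve1 cluster. In microglia-like cells 1 was higher with no doublets removed, without cycling cells, without cells holding a macrophage gene or in the Tmem119 cluster, where 0 were lower. In oligodendrocyte precursor-like cells 1 was higher without cycling cells. Leaving out each library gave 1 to 2 higher over all cells, 1 to 2 higher and 0 to 1 lower in T or NK cell-like cells, 0 lower throughout in endothelial cell-like cells and 1 to 3 lower in macrophage-like cells.

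Shares of cells with a UMI, infarction minus sham, moved with depth. For Lgals3 the difference was 52.8 points in microglia-like cells (40.3 thinned to 1000 UMIs, 67.2 unthinned) and 69.8 in macrophage-like cells (76.1 and 49.4). For Lgals1 it was 3.75 points in microglia-like cells (11.98 unthinned) and 70.6 in macrophage-like cells (63.4 thinned to 1000 UMIs).

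Changes of sign were seen mostly for values near 0. The log2 fold change of Lgals9 over all cells was 0.33 and became -0.14 with library totals and -0.31 with at most 10% mitochondrial UMIs. That of Lgals9 in microglia-like cells was -0.28 without cycling cells and -0.12 to 0.34 when a library was left out, and in macrophage-like cells 0.16 in the Lyve1 cluster. That of Lgals1 in T or NK cell-like cells was -0.059 with no doublets removed, -0.10 without cycling cells and -0.11 to 0.69 when a library was left out. In microglia-like cells Lgals1 was -0.018 with no doublets removed and -0.62 in the Tmem119 cluster. Lgals3bp in macrophage-like cells was 0.0098 with DESeq2, 0.16 with no count filter, 0.026 with no doublets removed, 0.081 with galectin genes kept in the clustering, 0.063 in the Lyve1 cluster and -0.41 to 0.13 when a library was left out. The Lgals8 difference between macrophage-like and microglia-like cells ran from -0.11 to 0.090. For single genes, 462 values kept direction and side of the threshold, 35 lost the call, 7 gained one and 23 changed sign. The causes were not tested. Depth limits Lgals8 and Lgals9 most, at 14283 and 6326 UMIs in all libraries together.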
